A study of Mus musculus with 14 samples.

Results

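Krüppel-like factors (KLFs) are zinc finger transcription factors that bind GC-rich and CACCC-containing promoter elements, and their activity depends on the cofactors they recruit. KLF2 and KLF4 are known above all from endothelial cells, where laminar blood flow induces them through the MEKK3-MEK5-ERK5-MEF2 kinase cascade and where they maintain a quiescent, anticoagulant state. In neurons, members of the family are known as regulators of axon growth, and several of them are induced as early response genes. The members described here are all genes of the table whose symbol is Klf followed by a number, which gave 8 of 7756 genes: Klf2, Klf4, Klf5, Klf6, Klf10, Klf11, Klf12 and Klf16. Other Klf genes were not analysed here.

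The libraries were made from the hippocampi of male wild-type C57BL/6J mice that were 8 weeks old at the start. The control group (n = 4) was kept in 21% oxygen for 28 days. The intermittent hypoxia group (IH, n = 5) had oxygen cycling between 10% and 21% every 2 min for 8 h per day. The sustained hypoxia group (SH, n = 5) had 10% oxygen for 8 h per day, and both exposures lasted 28 days. According to the methods, the sequenced control mice belonged to a preliminary experiment and the exposed mice to the main one, so the experiment and the exposure cannot be told apart in any difference from the control group. Behavioural tests, among them passive avoidance with an electric shock, followed the exposure, and the hippocampi were taken after them. The methods do not state whether the control mice of the preliminary experiment had these tests. Total counts were between 7203659 and 11777101 per library. The table had been preselected by its authors for genes whose processed signal differed from the control group, so every share and adjusted p below holds only within that selection.

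The filter kept genes whose mean count reached 40 in each of the 3 groups, which left 7338 genes and all 8 Klf genes. Markers of hippocampal fields, neurons, glia and endothelium that were in the table were at 0 in no library. The authors had preselected the table for signal, and it held 3 of 9 listed astrocyte, 7 of 12 microglial and 6 of 9 neuronal markers. However, 6 libraries (control replicate 4, IH replicates 1 and 4, SH replicates 1, 2 and 5) had Ttr, the transthyretin gene of the choroid plexus, above 1000 CPM, whereas the other 8 had 29.0 to 299.6. The results of the Klf genes are given with and without these 6 libraries. In whole hippocampus, fewer cells of a type and less RNA per cell cannot be told apart.

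Promoter sequences are shown for Klf2 and Klf4, the members with the largest differences from the control group, with the letters of some elements that known upstream factors and the family itself bind. RefSeq promoter entries (250 bases before the start site to 50 after it, GRCm38.p6) were matched for 5 of the 8 genes: Klf2, Klf4, Klf6, Klf11 and Klf12. Klf5, Klf10 and Klf16 had no entry. The 250 bases before the start of Klf2 are chr8:72318812-72319061 on the plus strand and those of Klf4 are chr4:55532476-55532725 on the minus strand. They are written 5′ to 3′ on the gene's strand. Capitals mark the GC box GGGCGG on either strand in both sequences, the MEF2 motif in Klf2 and the core ACGTG of a hypoxia response element, on either strand, in Klf4.
Klf2: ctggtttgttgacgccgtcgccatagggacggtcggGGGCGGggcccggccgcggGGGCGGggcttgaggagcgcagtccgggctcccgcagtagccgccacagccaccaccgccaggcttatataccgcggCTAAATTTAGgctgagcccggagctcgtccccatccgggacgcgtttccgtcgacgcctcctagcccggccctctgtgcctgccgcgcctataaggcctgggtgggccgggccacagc
Klf4: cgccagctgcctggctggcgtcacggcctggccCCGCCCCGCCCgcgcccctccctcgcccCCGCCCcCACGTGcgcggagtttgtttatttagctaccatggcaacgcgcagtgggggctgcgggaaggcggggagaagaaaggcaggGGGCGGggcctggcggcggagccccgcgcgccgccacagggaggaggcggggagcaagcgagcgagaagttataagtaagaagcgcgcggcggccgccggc

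The Klf2 promoter held the MEF2 motif CTAAATTTAG, whose first base is 118 bases before the start site, and 2 GC boxes. A MEF2 motif was present in 3.19% of the 32851 mouse promoters of the same length, and in no other of the 5 Klf promoters. The Klf4 promoter held 4 GC boxes, of which a pair shares 1 base, and 1 palindrome CACGTG that was counted as an ACGTG core on each strand. A GC box was present in 35.7% of all promoters, and an ACGTG or GCGTG core in 43.8%. GC boxes were also present in the promoters of Klf6 (1) and Klf11 (4) and not in that of Klf12. ACGTG or GCGTG cores, counted on both strands, were also present in Klf6 (3) and Klf11 (5), and not in Klf2 or Klf12. A CACCC box, the other element bound by the family, was found once in Klf2 and once in Klf12, compared with 57.5% of all promoters. The cyclic AMP response element TGACGTCA (1.79% of promoters), the AP-1 motif TGANTCA (7.81%) and the CArG motif of serum response factor (1.63%) were in none of the 5. These are matches of letters, and binding was not measured.

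The Klf genes differed widely in level. To compare genes, normalized counts were divided by library size and transcript length and are given as CPM per kb, as the mean ± SD of the control group. Klf16, a repressor that recruits SIN3A, was highest at 45.3 ± 2.01, above 77.8% of the genes tested. Klf10, a repressor induced by transforming growth factor β, was at 20.3 ± 3.78. Klf6, an activator induced by tissue injury, was at 18.0 ± 1.69, and Klf2 followed at 13.7 ± 2.97. Klf12, which represses through the corepressor CtBP, was at 7.94 ± 0.534 and Klf4 at 5.89 ± 1.54. The lowest were Klf11, a close relative of Klf10, at 4.11 ± 0.702 and Klf5, a factor of proliferating epithelia, at 3.89 ± 1.28. In this order the control ranges of neighbours overlapped except between Klf16 and Klf10 and between Klf2 and Klf12. Klf16 exceeded Klf10 in 14 of 14 libraries, whereas Klf2 exceeded Klf12 in 4 of 4 control libraries and in 9 of all 14, as it was at 7.79 ± 1.93 in SH, where Klf12 was at 8.87 ± 0.988.

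**Figure D1:**
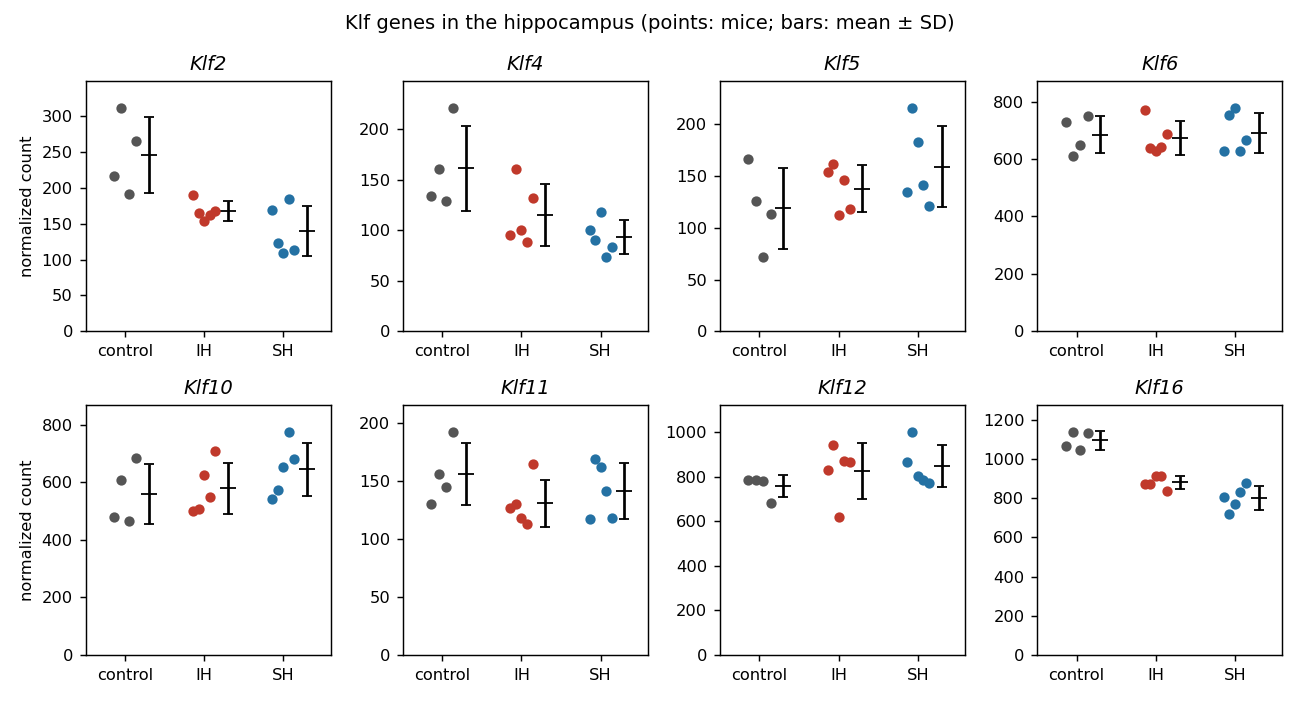
Normalized counts (y axis, linear from 0) of the 8 Klf genes in control, IH and SH mice (x axis); points are mice, and bars are the mean ± SD. The control points of Klf2 and Klf16 lie above every IH and SH point, those of Klf4 lie above every SH point, and the groups overlap for Klf5, Klf6, Klf10, Klf11 and Klf12.

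Klf2 was lower in the exposed mice than in the control mice, and the difference passed the test in SH. Klf2 lies on chromosome 8 (GRCm39, 73072726 to 73075502, plus strand). Its normalized counts, which are counts scaled to the mean library, were 217, 312, 191 and 266 in the control mice. They were 190, 165, 154, 163 and 168 in IH and 170, 123, 109, 185 and 114 in SH. All 10 exposed mice were below all 4 control mice, although the highest IH mouse and the lowest control mouse were nearly equal. The mean was 246 ± 53.5 (SD, n = 4) in control, 168 ± 13.5 (n = 5) in IH and 140 ± 34.8 (n = 5) in SH, and the raw counts behind these values were between 90 and 323.

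Klf2 had a log2 fold change of -0.81 in SH against control (SE 0.18, 95% interval -1.19 to -0.43), and the quasi-likelihood test of edgeR, with p adjusted over the 7338 genes by the Benjamini-Hochberg method, gave an adjusted p of 0.00684. Only 29 of the genes tested (0.395%) had a lower log2 fold change in SH. The corresponding value in IH was -0.55 (SE 0.18, 95% interval -0.93 to -0.17). The same test gave an unadjusted p of 0.00746 and an adjusted p of 0.0583, so the IH difference did not pass, and 112 genes (1.53%) had a lower log2 fold change. It passed with DESeq2 (adjusted p = 0.0295), with only the IH and control groups in the edgeR fit (adjusted p = 0.0442), without control replicate 3 (adjusted p = 0.0389) and without SH replicate 4 (adjusted p = 0.0498). The 2-sided exact permutation test of the log2 normalized counts gave p = 0.0159 for both comparisons, which is the smallest value that 5 against 4 mice allow.

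Klf4, which shares endothelial targets with Klf2 and is also a pluripotency factor, was lower in SH. Klf4 lies on chromosome 4 (GRCm39, 55527139 to 55532528, minus strand). Its normalized counts were 134, 160, 129 and 221 in control, 95.1, 160, 100, 87.8 and 132 in IH, and 100, 90.2, 118, 73.7 and 82.9 in SH. Every SH mouse was below every control mouse, whereas 2 of the 5 IH mice lay within the control range. The mean was 161 ± 42.1 (SD, n = 4) in control, 115 ± 30.3 (n = 5) in IH and 93.0 ± 17.0 (n = 5) in SH. Against control, Klf4 had a log2 fold change of -0.79 (SE 0.21, edgeR adjusted p = 0.0185) in SH and -0.48 (SE 0.21, edgeR adjusted p = 0.143) in IH. The 2-sided exact permutation test gave p = 0.0159 in SH and p = 0.0952 in IH. The highest control value was that of control replicate 4, and without that library the SH difference of Klf4 was -0.60 and did not pass (edgeR adjusted p = 0.0677). The IH difference of Klf4 was then -0.29 (edgeR adjusted p = 0.374).

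Klf16 was lower than control in both exposures, with smaller fold changes and less spread between mice. Klf16 lies on chromosome 10 (GRCm39, 80402954 to 80413712, minus strand). Its normalized counts were 1066, 1140, 1044 and 1135 in control, 874, 872, 915, 914 and 837 in IH, and 806, 719, 769, 831 and 879 in SH. Both exposed groups lay entirely below the control mice. The mean was 1096 ± 48.7 (SD, n = 4) in control, 882 ± 32.9 (n = 5) in IH and 801 ± 60.7 (n = 5) in SH. Against control, Klf16 had a log2 fold change of -0.31 (SE 0.067, edgeR adjusted p = 0.0097) in IH and -0.45 (SE 0.067, edgeR adjusted p = 0.00071) in SH. The 2-sided exact permutation test gave p = 0.0159 for both.

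The other 5 Klf genes did not pass the test in any comparison, and in edgeR and DESeq2 alike 0 of them had a call, with 0 at an unadjusted edgeR p under 0.05. Klf5 had a median of 119 and a range of 71.3 to 167 in control, 146 (112 to 162) in IH and 141 (121 to 216) in SH. Klf5 had a log2 fold change of 0.22 in IH and 0.42 in SH (95% interval -0.07 to 0.91), on the other side of 0 from Klf2 and Klf4 but without passing the test. The Klf5 value in IH was 0.0326 without control replicate 3 and 0.425 without control replicate 1, and in SH it was 0.237 and 0.629 without the same libraries. Klf6 was at 684 ± 64.4 (SD, n = 4) in control, 673 ± 59.6 (n = 5) in IH and 690 ± 70.4 (n = 5) in SH. The 95% intervals of the Klf6 log2 fold changes were -0.22 to 0.17 in IH and -0.18 to 0.21 in SH. Klf10 was at 560 ± 104, 579 ± 88.1 and 646 ± 92.8 in the same order, with log2 fold changes of 0.05 in IH and 0.21 in SH. Klf11 was at 156 ± 26.7, 131 ± 20.4 and 142 ± 24.2, with log2 fold changes of -0.25 in IH and -0.14 in SH. When each library was left out, the Klf11 values were between -0.351 and -0.133 in IH and between -0.218 and -0.0254 in SH. Klf12 was at 759 ± 51.0, 827 ± 124 and 847 ± 94.5, with log2 fold changes of 0.12 in IH and 0.16 in SH. In edgeR, the adjusted p of these 5 genes was between 0.319 and 0.888 in IH and between 0.2 and 0.937 in SH.

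**Figure D2:**
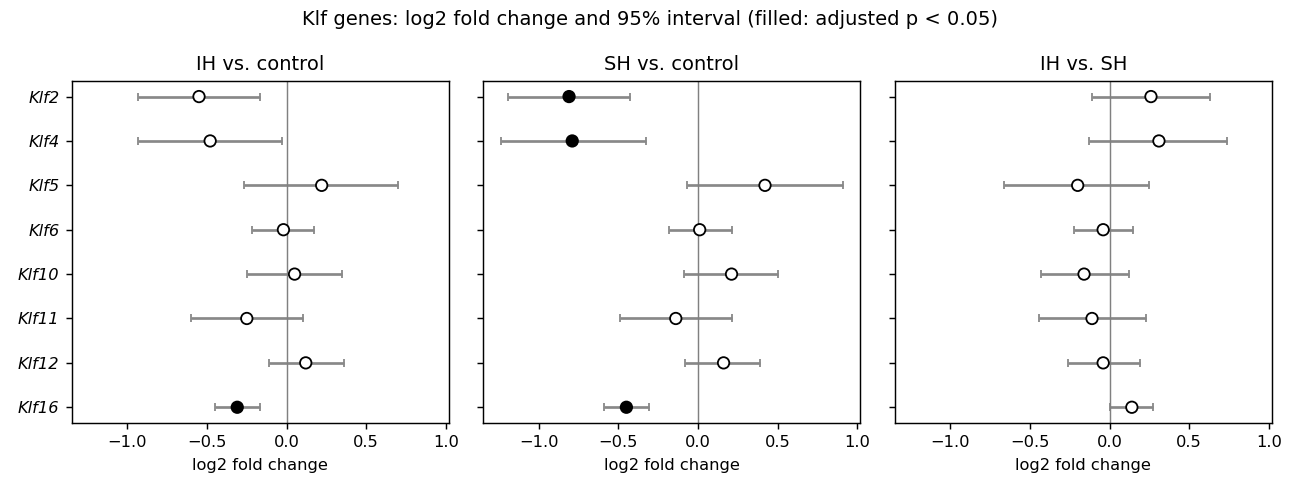
Log2 fold change (x axis) of each Klf gene (y axis) in the 3 comparisons; points are edgeR estimates, bars are 95% intervals, and filled points have an adjusted p under 0.05. The filled points are Klf16 in IH and Klf2, Klf4 and Klf16 in SH against control, and none is filled for IH against SH.

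Across the 8 genes, 1 was lower in IH (Klf16) and none was higher, where 10.9% of all genes tested passed in either direction and 4.85% were lower. In SH, 3 of 8 were lower (Klf2, Klf4 and Klf16) and none was higher, where 20.6% of all genes passed and 10.5% were lower. The limits used in the study, a log2 fold change beyond 0.58 with an unadjusted p under 0.05, were applied to the edgeR values. Klf2 and Klf4 then passed in SH, where 2.71% of all genes passed. No Klf gene passed in IH, where 2.68% did and Klf2, at -0.55, fell short of the fold limit. The study processed and tested its counts otherwise, so its own calls at these limits can differ. Klf2 and Klf16 were lower in IH without overlap with control, as were 7.48% of all genes, and Klf2, Klf4 and Klf16 were so in SH, as were 10.6%. The median log2 fold change of the Klf genes was -0.14 in IH and -0.06 in SH, beside -0.015 and 0.004 for all genes. The IH and SH comparisons share their control mice, so these values are given side by side only.

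IH and SH were compared with each other in the same fit of 3 groups, and no Klf gene passed the test, where 2.37% of all genes did. Klf16 alone had an unadjusted edgeR p under 0.05, as 15.8% of all genes had, with a log2 fold change of IH over SH of 0.14 (edgeR adjusted p = 0.296), and DESeq2 called 0 Klf genes. For Klf2 the log2 fold change of IH over SH was 0.26 with a 95% interval of -0.11 to 0.63, and for Klf4 it was 0.31 with an interval of -0.13 to 0.74. A lower level of both genes in SH than in IH was therefore not detectable with these mice, and these intervals also include no difference. When each library was left out, the value was between 0.184 and 0.376 for Klf2 and between 0.16 and 0.404 for Klf4.

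Klf2 was set beside the rest of the family within each library, as its log2 normalized count minus the mean log2 normalized count of the other 7. This difference was between -0.75 and -0.27 in control (mean -0.59), between -1.16 and -0.84 in IH (mean -1.03) and between -1.79 and -0.86 in SH (mean -1.33). Klf2 was lower relative to its family in every exposed mouse than in every control mouse. The gap between the group means of IH and control was -0.44 and stayed between -0.50 and -0.38 when each other Klf gene was left out. For SH and control it was -0.74, with a range of -0.86 to -0.65. No such score was made for other genes, so no share over all genes stands beside it. The score was also not adjusted for GC content. Against control, the median log2 fold change in SH was -0.266 for genes with a GC content like that of Klf2. It was 0.191 for genes like Klf6 and Klf12 and 0.094 for genes like Klf5, Klf10 and Klf11.

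GC content moved with these results. Transcripts of Klf2 and Klf16 are 62.1% and 60.5% GC, in the highest of 10 equal bins of GC content, and that of Klf4 is 54.6% GC. Klf6 and Klf12 are in bin 2 (42.4% and 43.9%), and Klf5, Klf10 and Klf11 in bin 4 (47.1% to 48.6%). Over all genes tested, the median log2 fold change fell along the bins, from 0.210 at the lowest to -0.168 at the highest GC content in IH, and from 0.221 to -0.266 in SH. In the highest bin 14.9% of the genes were lower in IH and 35.4% in SH. Within that bin of 731 genes, 34 (4.65%) had a lower log2 fold change than Klf2 in IH and 7 (0.958%) in SH. For Klf16 these counts were 144 and 110. In the bin of Klf4, with 728 genes, 20 (2.75%) were lower than Klf4 in IH and 1 (0.137%) in SH.

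**Figure D3:**
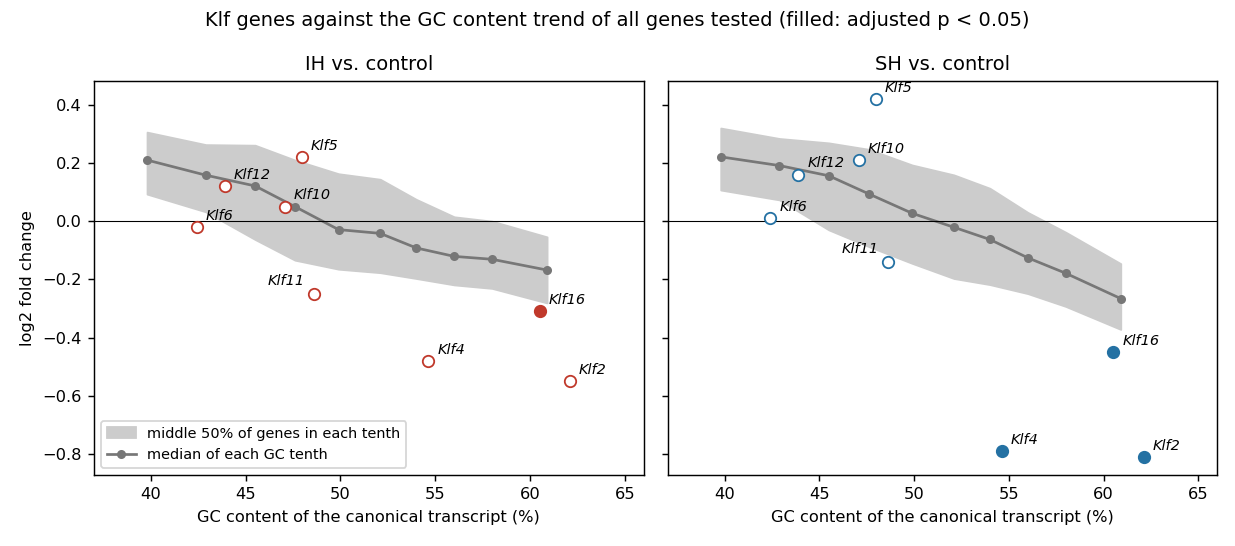
Log2 fold change (y axis) against GC content of the transcript (x axis) in IH and SH against control; the line is the median and the band the middle 50% of the genes in each of 10 bins of GC content, and filled circles are Klf genes with an adjusted p under 0.05. Klf2 and Klf4 lie below the band in both panels, and so do Klf6 and Klf11, which are not filled. Klf16 lies close to its lower edge in IH and below it in SH. Klf5 lies close to its upper edge in IH and above it in SH, and Klf10 and Klf12 lie inside it.

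When the trends with GC content and transcript length were removed from every library, no Klf gene passed the test. The log2 fold change of Klf4 in SH moved little, to -0.71 (edgeR adjusted p = 0.0608), that of Klf2 became -0.51 (edgeR adjusted p = 0.1) and that of Klf16 became -0.21 (edgeR adjusted p = 0.0617). In IH they became -0.41, -0.35 and -0.16 for Klf4, Klf2 and Klf16, with edgeR adjusted p of 0.287, 0.274 and 0.164. All of them remained below 0. The part of GC content in these differences beyond this was not tested.

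The choroid plexus libraries were in all 3 groups. With the choroid plexus marker level as a covariate the edgeR calls of the Klf genes were the same. Without the 6 libraries, which left 3 control, 3 IH and 2 SH mice, no Klf gene passed. Over all genes 47 passed in IH, 26 in SH and 0 for IH against SH. Without those 6 libraries the log2 fold change of Klf2 was -0.56 in IH and -0.71 in SH (edgeR adjusted p = 0.221 and 0.176), and that of Klf16 was -0.31 and -0.45 (edgeR adjusted p = 0.123 and 0.079). That of Klf4 was -0.57 in SH (edgeR adjusted p = 0.259), and in IH it shrank to -0.11 (edgeR adjusted p = 0.8).

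**Figure D4:**
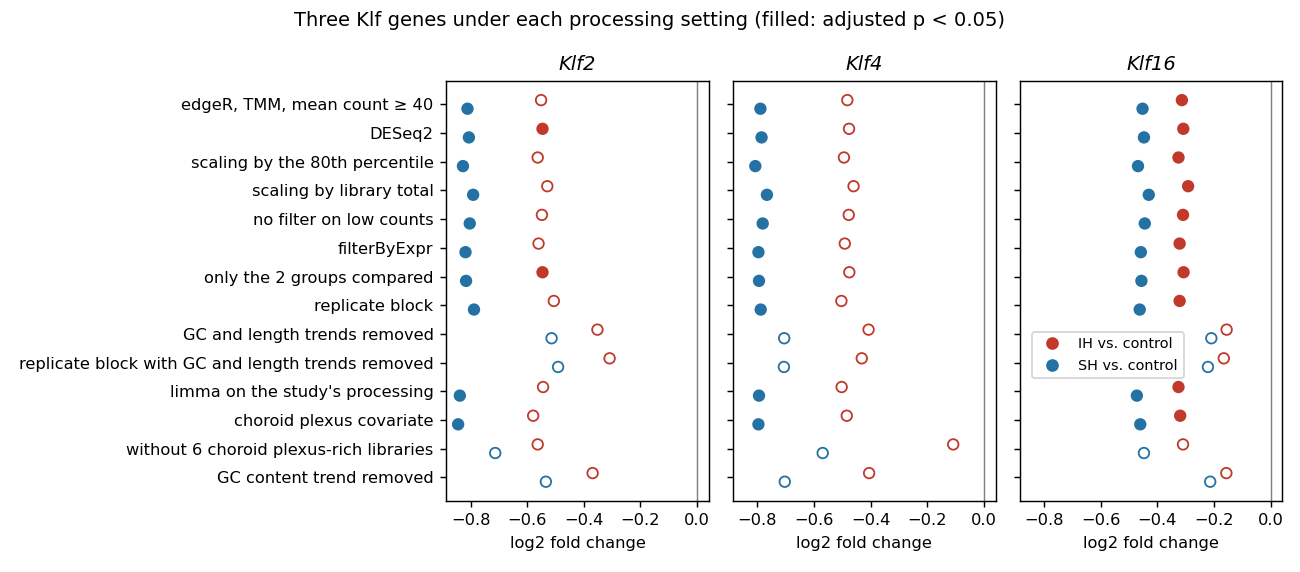
Log2 fold change (x axis) of Klf2, Klf4 and Klf16 in IH and SH against control under each way of processing the counts (y axis); filled points have an adjusted p under 0.05. All points lie below 0, and in SH all 3 genes lose the call when the GC content trend is removed or when the 6 libraries rich in choroid plexus transcripts are left out.

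The genes whose pattern over the 14 libraries was most like that of Klf2 were Blvrb (Pearson's r = 0.92), Aen (0.88), Rpl35 (0.87), Dedd2 (0.87) and Garem2 (0.85). These correlations describe libraries that share their group differences and their GC content trend. Klf16 was 18th among all genes (r = 0.82) and Klf4 593rd (r = 0.60). After the group means were subtracted, which leaves only the variation between mice of a group, Klf16 had r = 0.33 and Klf4 r = 0.02, while Aen (0.83) and Blvrb (0.79) stayed among the 5 closest, with Tincr (0.85), Heatr5a (0.84) and Shmt1 (0.80).

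Of the genes upstream of KLF2 and KLF4 that passed the test, more were higher than lower. The list holds the MEKK3-MEK5-ERK5-MEF2 cascade and the cerebral cavernous malformation (CCM) complex, which restrains it, and 10 of its 18 genes were in the table and tested. Of the cascade these were Map3k2, Map2k5 and Mef2c. The genes of MEKK3 (Map3k3) and ERK5 (Mapk7) were not in the table, nor were the other MEF2 genes and Ccm2. In IH, 2 rose and 1 fell, and in SH 4 rose and 1 fell, with median log2 fold changes of 0.15 and 0.19, where 10.9% and 20.6% of all genes passed. The IH count of 3 became 1 with limma and without control replicate 1, 2 or 4 or IH replicate 1 or 4. Mef2c, a MEF2 factor, was at 2388 ± 103 (SD, n = 4) normalized counts in control, 3032 ± 308 (n = 5) in IH and 3160 ± 434 (n = 5) in SH, with log2 fold changes of 0.34 and 0.40 (edgeR adjusted p = 0.0358 and 0.0106). Krit1, a CCM complex member, rose by 0.39 in IH and 0.36 in SH (edgeR adjusted p = 0.0105 and 0.00963). Rap1a and Rap1b, small GTPases that bind KRIT1, rose in SH by 0.28 and 0.38. Hdac5, a class II histone deacetylase that represses MEF2, fell by 0.21 in IH and by 0.27 in SH (edgeR adjusted p = 0.0275 and 0.00518). The upstream kinase gene Map2k5, which encodes MEK5, was at a log2 fold change of -0.23 in both and did not pass (edgeR adjusted p = 0.0788 and 0.0576). With GC content and length trends removed, 1 gene of this list passed in IH and 0 in SH, and without the 6 choroid plexus libraries 0 passed in either.

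Endothelial genes known to lie downstream of KLF2 and KLF4 were called about as often as all genes in IH. Of 18 genes 12 were in the table and 10 were tested, with medians of 0.09 in IH and 0.04 in SH. In IH 1 passed and in SH 0, beside 10.9% and 20.6% of all genes. Vegfa, the vascular growth factor gene, was at 1611 ± 161 (SD, n = 4) normalized counts in control, 2066 ± 125 (n = 5) in IH and 1459 ± 90.7 (n = 5) in SH. Vegfa rose in IH by 0.36 on the log2 scale (edgeR adjusted p = 0.00769) and was higher in IH than in SH by 0.50 (edgeR adjusted p = 0.00154), and neither call was made without the 6 choroid plexus libraries. Thbd, the thrombomodulin gene and a classical KLF2 target, was at -0.21 in IH and -0.22 in SH, and neither passed (edgeR adjusted p = 0.306 and 0.256). In IH 3 of the 10 had an unadjusted edgeR p under 0.05, and the values farthest from 0 were those of Ccn3 (-0.56) and Cyp1b1 (0.54), which did not pass (edgeR adjusted p = 0.124 and 0.167). In SH 0 of the 10 passed in edgeR, at an unadjusted p under 0.05 or in DESeq2, and 2 passed in edgeR without control replicate 4. Tek, Vcam1, Kdr and Cav1 were between -0.02 and 0.28 in both exposures without passing.

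Genes for KLF partners and relatives were sparse in the table. Of 16 cofactor and ubiquitin ligase genes 3 were tested, and Wwp1, a ubiquitin ligase that acts on KLF2 and KLF5, rose in IH by 0.28 (edgeR adjusted p = 0.0415). This call was lost in most alternatives, among them the replicate block, removal of GC content and length trends, limma, the choroid plexus covariate and omission of the 6 choroid plexus libraries. It was also lost without control replicate 1, 2 or 4, IH replicate 1, 2, 4 or 5, or SH replicate 4. In SH 0 of these 3 passed in edgeR and 1 in DESeq2, and 3 had an unadjusted edgeR p under 0.05. Of the related Sp factors Sp1, Sp3 and Sp9 were tested and none passed in edgeR or DESeq2, while 1 (Sp3) had an unadjusted edgeR p under 0.05 in each exposure. Their log2 fold changes were between -0.41 and 0.21. Among 6 genes of axon growth and stem cell programmes linked to KLFs, Stat3 rose in IH by 0.41 (edgeR adjusted p = 0.0133), and 0 passed in SH by edgeR or DESeq2, with 2 at an unadjusted edgeR p under 0.05, beside 10.9% and 20.6% of all genes. In IH 2 of the 6 passed with DESeq2 and without IH replicate 3, and in SH 1 passed without SH replicate 2. Of 13 glucocorticoid-induced genes, 3 rose and 1 fell in IH and 3 rose and 3 fell in SH, where 10.9% and 20.6% of all genes passed. Without the 6 choroid plexus libraries 0 genes of the axon growth and glucocorticoid lists passed in IH or SH.

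Many immediate early genes, which neuronal activity induces within minutes, fell in both exposures. Of the 16 tested, 10 fell in IH and 9 in SH and none rose, beside 4.85% and 10.5% of all genes that were lower, with median log2 fold changes of -0.80 and -0.64. Fos was at 478 ± 89.3 (SD, n = 4) normalized counts in control, 169 ± 60.8 (n = 5) in IH and 228 ± 31.7 (n = 5) in SH, with log2 fold changes of -1.49 and -1.07 (edgeR adjusted p = 0.000625 and 0.00298). Junb (-1.08 and -1.07), Btg2 (-1.04 and -1.08) and Ier2 (-0.93 and -1.10) fell by similar amounts, whereas Jun (0.02 and -0.16) and Egr3 (0.14 and 0.04) did not pass. Klf6 and Klf10, which are also induced as early response genes, did not pass the test in these mice. With GC content and length trends removed 8 immediate early genes passed in IH and 7 in SH, and without the 6 choroid plexus libraries 2 and 0 did. Their part in the Klf2 and Klf4 differences was not tested.

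**Figure D5:**
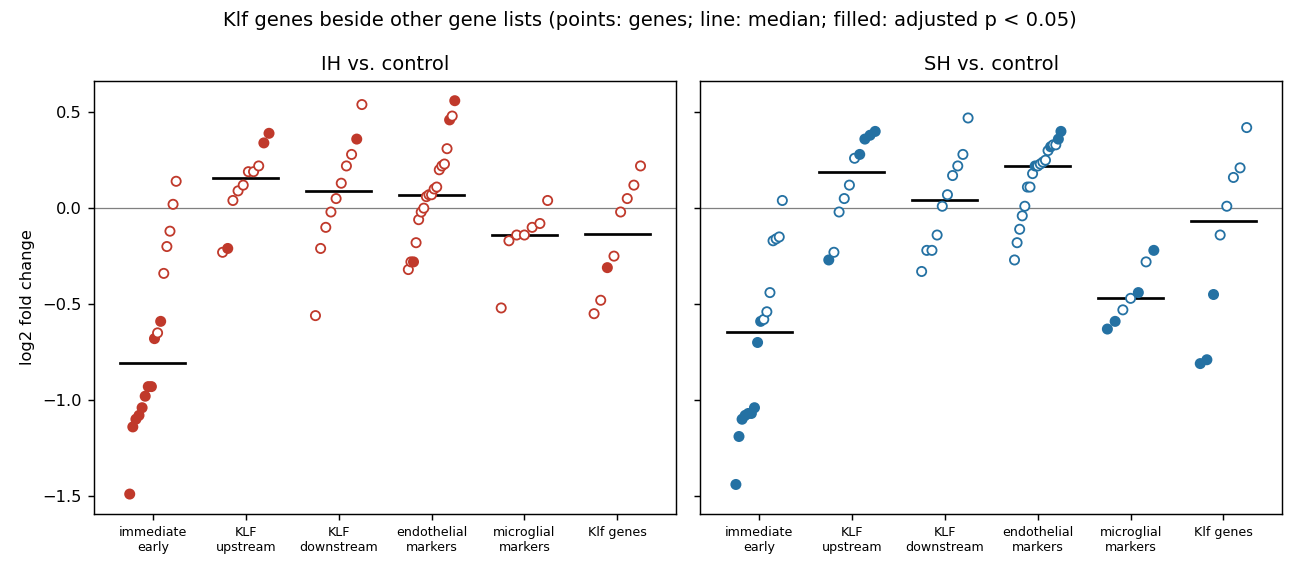
Log2 fold change (y axis) of single genes (points) in IH and SH against control, grouped by list (x axis), with the list median as a line and filled points for an adjusted p under 0.05. Immediate early genes have the lowest medians (-0.80 and -0.64), and the Klf genes spread from -0.55 to 0.22 in IH and from -0.81 to 0.42 in SH.

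Endothelial cells are a main site of KLF2 and KLF4, and vascular markers were therefore measured beside them. Of 22 endothelial markers 19 were tested, of which 2 rose and 1 fell in IH and 4 rose and none fell in SH, beside 10.9% and 20.6% of all genes. Their summed normalized counts were 10592 to 12410 in control, 11687 to 12496 in IH and 12232 to 13641 in SH. In IH the median log2 fold change of these markers was 0.07, with 6 of the 19 below 0. In SH the median was 0.22, with 4 of the 19 below 0. Ly6c1 (0.46) and Mfsd2a (0.56) rose in IH, Itm2a fell in IH (-0.28) and rose in SH (0.32), and Slco1a4 (0.40) and Abcb1a (0.36) rose in SH. In IH Cldn5 (-0.28) and Egfl7 (-0.32) did not pass (edgeR adjusted p = 0.18 and 0.0787). Flt1, a vascular endothelial growth factor receptor gene, rose in SH by 0.22 (edgeR adjusted p = 0.0245). Of 9 markers of pericytes and smooth muscle 0 passed in edgeR or DESeq2, with 2 at an unadjusted edgeR p under 0.05 in IH and 0 in SH, and their summed counts were 5290 to 6320 in control, 5202 to 5854 in IH and 5323 to 7670 in SH.

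Some microglial markers and haemoglobin genes passed the test against control. Of 7 microglial markers 0 passed in IH by edgeR or DESeq2 (1 at an unadjusted edgeR p under 0.05) and 4 fell in SH (Csf1r, C1qa, C1qc and Tyrobp), where 10.5% of all genes were lower, with summed normalized counts of 5034 to 5636 in control, 4645 to 5801 in IH and 3779 to 4650 in SH. Of 4 erythrocyte genes tested 4 fell in IH, where 4.85% of all genes were lower, and in SH 0 passed by edgeR or DESeq2 (2 at an unadjusted edgeR p under 0.05), with summed counts of 2926 to 3189 in control, 1649 to 2304 in IH and 2203 to 3081 in SH. In the direct comparison of IH with SH, edgeR called 2.37% of all genes. It called 1 of 7 microglial markers (C1qc, higher in IH), with 3 at an unadjusted edgeR p under 0.05 and 2 called by DESeq2. Of the 4 erythrocyte genes edgeR called 0 (3 at an unadjusted edgeR p under 0.05 and 1 by DESeq2). No gene of these 4 marker lists that was in the preselected table was at 0 in any library. The part of these cells in the Klf2, Klf4 and Klf16 differences was not tested.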

How the data were processed

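Poly(A) RNA of each hippocampus was sequenced as directional, paired-end libraries. Per the labels, the authors trimmed reads with fastp 0.23.4, aligned them to GRCm39 with HISAT2 2.2.1 and quantified them with StringTie 2.2.1. The deposited values are estimated counts per gene from the authors, without normalization, for 7756 protein-coding genes that they preselected for signal and for a difference from control. Counts of 10 genes had decimals and were rounded. The Klf genes, gene lists and tests were chosen with earlier results of these data known.

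Counts were scaled by TMM and fitted with edgeR 4.0.16 (R 4.3.3), the 3 groups in one quasi-likelihood fit, over the 7338 genes that averaged 40 counts or more in each group, with Benjamini-Hochberg adjustment. Standard errors were derived from the F statistic. Named genes are the members of the family, the 5 genes with the highest Pearson correlation with Klf2, and members of the lists. Alternatives were DESeq2 1.42.0, limma 3.58.1 on the processing of the study, other scalings and filters, a replicate block, loess trends with GC content and length, and leaving out each library. A choroid plexus covariate, omission of the choroid plexus libraries and the GC trend alone were added after seeing the data. Coordinates, length and GC content are from GENCODE on GRCm39 (7707 genes matched by symbol and 16 by synonym).

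In simulated counts for SH against control, with 7338 genes, the test recovered 52% of 100 genes changed by 0.58 on the log2 scale and 86% of 100 changed by 1, with 3 false calls. Replicates are separate mice according to the methods. No libraries of the same group were duplicates, as the chi-square per degree of freedom was at least 8.96 over 26 pairs within groups. Pairs from different groups were not compared in this way.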

Additional observations from a re-analysis of the deposited data

Results flagged for a closer look

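Among the 24 sets of Klf values tested (8 genes in 3 groups), 1 held a library far from the rest of its group. Klf12 was at 682 normalized counts in control replicate 4, whereas the other 3 control mice were between 783 and 786. Chance alone sets a library apart in about 1 of 20 such groups. Control replicate 4 is also the control library rich in choroid plexus transcripts, and the part of these in its Klf12 value was not tested.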

How the results depend on the processing

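The direction of Klf2, Klf4 and Klf16 against control was the same under all 27 alternatives. The number of Klf genes called in IH was 2 with DESeq2 and with only the 2 groups compared, where Klf2 was at -0.546 in both (adjusted p = 0.0295 and 0.0442). It was 0 with GC content and length trends removed, with these trends removed beside the replicate block, with the GC content trend alone removed, without the 6 libraries rich in choroid plexus transcripts, and at the limits of the study. The number called in SH was 0 under the same settings except the limits of the study. Klf2 in SH was then at -0.514 (adjusted p = 0.1), -0.491 (0.105), -0.534 (0.0840) and -0.713 (0.176), in that order. When each library was left out, 1 to 2 Klf genes were called in IH (Klf2 as well without control replicate 3 or SH replicate 4) and 2 to 3 in SH (not Klf4 without control replicate 4), and the log2 fold change of Klf2 was between -0.655 and -0.417 in IH and between -0.927 and -0.676 in SH.

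Klf6, Klf10, Klf11 and Klf12, which did not pass, changed sign around 0 in some settings, and Klf5 did not. Klf6 in SH was at -0.00437 with scaling by the 80th percentile, -0.00485 with limma, -0.00116 with the choroid plexus covariate, -0.180 with GC content and length trends removed, -0.171 with the block added and -0.163 with GC content alone. Klf10 in IH was at -0.00729, -0.0539 and -0.00357 in the last 3 settings. Klf12 with both trends removed was at -0.0191 in IH, -0.0204 in SH and 0.00131 for IH against SH, and with the block added at -0.00655, -0.0110 and 0.00445. Without the 6 choroid plexus libraries Klf11 in SH was at 0.0697 and Klf12 for IH against SH at 0.0366. When each library was left out, Klf6 was between -0.0762 and 0.0234 in IH, between -0.0366 and 0.0581 in SH and between -0.0890 and 0.0106 for IH against SH. Klf10 in IH was between -0.0335 and 0.162, and Klf12 for IH against SH between -0.0872 and 0.0524.

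Libraries with the same replicate number were not taken as pairs. The deviations of same-numbered libraries from their group means correlated between -0.304 and 0.457 over 13 pairs, above 0.1 in 6, and 5 of 14 libraries were closest to one with their own number. With the replicate block, Klf2 was at -0.506 in IH (adjusted p = 0.0819) and -0.788 in SH (0.0107), the Klf calls were the same, and 738, 1443 and 148 of all genes were called in IH, SH and IH against SH.

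Of all genes, 802 were called in IH, 1514 in SH and 174 for IH against SH. With GC content and length trends removed these were 429, 473 and 211, with the block added 354, 460 and 207, and with GC content alone 412, 487 and 165. DESeq2 called 300 and the fit of only 2 groups 64 for IH against SH, and the limits of the study 197, 199 and 72. They were 408 and 906 without control replicate 1 and 386 and 979 without control replicate 2 in IH and SH, 518 in IH without control replicate 4, and 88 to 178 for IH against SH when each library was left out. The causes of these changes were not tested. With low counts, as for Klf4 in SH (59 to 115 reads), changes under those shown by the intervals were not detectable.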

Other observations

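Gene lists not described with the Klf genes are given as values, beside 10.9% of all genes called by edgeR in IH and 20.6% in SH. Of the glucocorticoid-induced genes, Plin4, a lipid droplet protein gene, had the highest log2 fold change in both exposures, 1.61 in IH and 1.38 in SH (edgeR adjusted p = 0.00373 and 0.0051), and Tsc22d3, which encodes GILZ, rose in IH (0.57, adjusted p = 0.00733) and not in SH (0.13, adjusted p = 0.446). Compared directly, Tsc22d3 was higher in IH than in SH by 0.44 (edgeR adjusted p = 0.0417), a call that was lost with the replicate block, with limma and when single libraries of any group were left out. Of 8 hippocampal field markers Prox1, a dentate granule cell factor, was the one called by edgeR in each exposure, where it rose, while DESeq2 called 2 of the 8 in each. Of 8 oligodendrocyte markers 0 passed by edgeR or DESeq2, with 3 at an unadjusted edgeR p under 0.05 in IH and 1 in SH. Their median log2 fold change was 0.39 in IH, with 1 of the 8 below 0, and 0.38 in SH, with 0 below 0. Of 6 neuronal markers 0 passed in IH by edgeR and 2 by DESeq2 (3 at an unadjusted edgeR p under 0.05), and in SH Gad1 rose and Slc17a7 fell. Of 3 astrocyte markers tested Gjb6 rose in both exposures, whereas Gfap (0.05 and -0.12) and S100b (-0.15 and -0.17) did not pass. Of 12 choroid plexus markers 0 passed by edgeR or DESeq2 or at an unadjusted p under 0.05, with summed normalized counts of 4453 to 124366 in control, 5483 to 74975 in IH and 5175 to 92113 in SH.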
